A study of Homo sapiens with 12 samples.

Results

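Of the 26334 gene symbols in the count table, 77 have the form MRPL or MRPS followed by a number and, in some, a letter, and these 77 mRNAs of the mitochondrial ribosome are described here. The rule uses the symbol alone and no measured value, although it was set with earlier results of these data known. Of the 77, 76 had a mean of at least 10 counts per library and were tested among 12032 such genes. The remaining member, MRPS24, had 0 to 2 counts in a library.

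Mitochondria keep ribosomes of their own, built of a small and a large subunit, which translate the few mRNAs of the mitochondrial genome into core subunits of the respiratory chain. Their RNAs come from the mitochondrial genome, while their proteins are made from nuclear genes, so the mRNAs described here are transcribed in the nucleus, translated in the cytosol and their products imported. Some of these proteins have counterparts in bacterial ribosomes, and others are particular to mitochondria. Symbols do not always follow the subunit: MRPS30 and MRPS18A are placed in the large subunit here, and MRPS36 is known as a component of the 2-oxoglutarate dehydrogenase complex of the citric acid cycle and was counted with neither subunit.

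The cells were A673, an established Ewing sarcoma line, labelled shA673-1c, which were grown with blasticidin and zeocin. The labels do not say what the letters sh stand for in this line, nor whether a hairpin was expressed. All cells received 5 µM actinomycin D, an inhibitor of transcription, for 0, 1, 2 or 4 h, with 3 biological replicates per time and no arm without the drug. Poly(A) RNA was sequenced as 12 stranded libraries of 9147018 to 11194705 counts.

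Of 9 markers of Ewing sarcoma, 8 were above 0 in every library, with a summed level of 1949 to 2495 CPM (counts scaled to a common library size), and CD99 had 0 counts in all. Most of that sum was CCND1 (1600 to 2058 CPM), while NKX2-2 was at 0.784 to 7.72 and NR0B1 at 7.72 to 43.4 CPM. Endothelial (4), epithelial (3) and blood (3) markers summed to at most 1.01, 0.783 and 0.895 CPM. MYC and JUN, mRNAs known to be short-lived, fell from 134 ± 11.5 to 8.36 ± 2.75 CPM and from 41.2 ± 7.45 to 4.54 ± 0.883 CPM between 0 and 4 h (mean ± SD, n = 3).

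CPM were scaled by the trimmed mean of M-values (TMM), so a level is relative to the bulk of the genes and not an amount per cell. Nor is it a plain share of the library's counts. With library totals, which give that share, the median slope of all genes moved by -0.039 and 15 members rose. The slope of a gene is its change in log2 CPM per hour over the 12 libraries. With transcription blocked, a positive slope says that a transcript gained on the TMM scale, which needs no new transcript, and a negative slope that it lost. The words rose and fell are used in this sense for slopes with an adjusted p under 0.05 (edgeR quasi-likelihood test, Benjamini-Hochberg over the 12032 genes). Where the libraries were instead scaled to GAPDH plus ACTB, which themselves rose by 0.15 and 0.12 log2 per hour, the median slope of all genes moved by -0.14, so that direction is always relative to the scale.

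The mitochondrial ribosomal protein mRNAs did not move as 1 block. Of 76 tested members, 27 rose and 22 fell over the 4 h, while 30.7% and 32.1% of all genes tested rose and fell (35.5% and 28.9% of the members). With scaling to GAPDH plus ACTB, 0 members rose and 57 fell, against 0.931% and 64.2% of all genes. The median slope of the members was 0.0072 log2 per hour and that of all genes 0.0093, a difference of -0.0020. In the 3 replicates fitted alone this difference was 0.013, 0.0022 and -0.0013, with an SD of 0.0075, so it was smaller than the spread between replicates. Their middle quartiles ran from -0.059 to 0.073, within the -0.13 to 0.089 of all genes. The lowest slope was -0.42 (MRPL44) and the highest 0.16 (MRPL53).

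**Figure D1:**
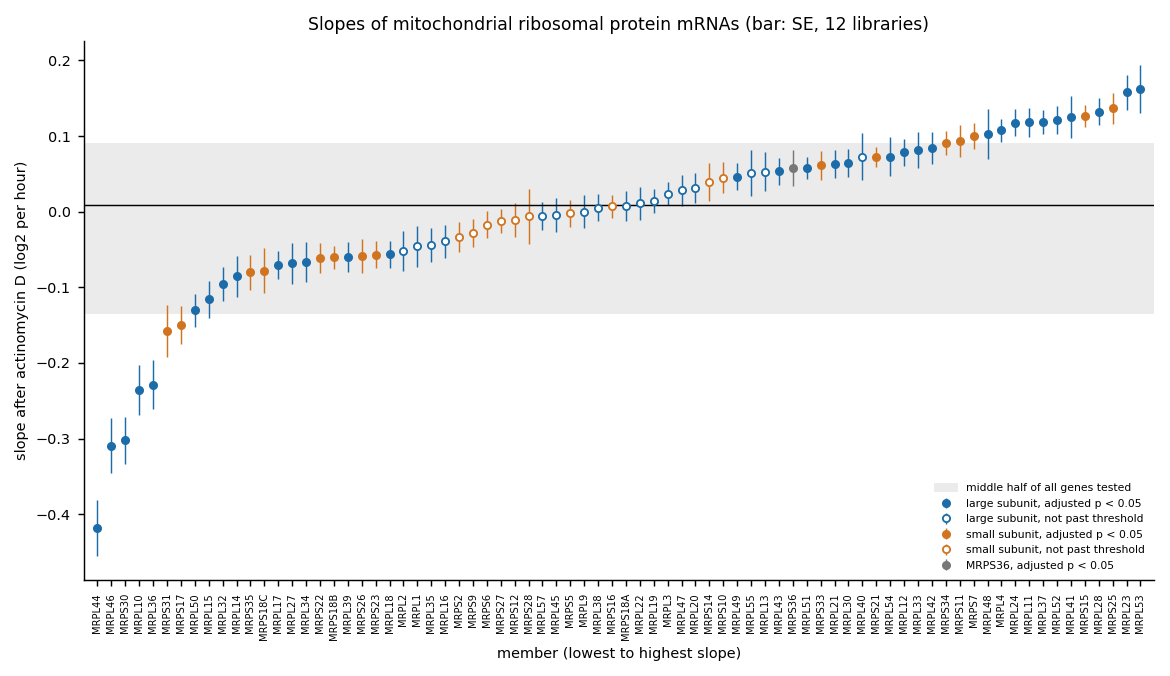
Slope after actinomycin D (log2 CPM per hour, y axis) of each of the 76 tested members, ordered from lowest to highest (x axis). Points are fitted slopes over 12 libraries with their SE, filled where the adjusted p was under 0.05; the line is the median and the band the quartiles of all genes tested. 27 members rose and 22 fell, and the 7 lowest points, from MRPL44 at -0.42 to MRPS17 at -0.15, lie below the band; with scaling to GAPDH plus ACTB, 0 rose and 57 fell.

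The comparison of 4 h with 0 h gave 25 members higher and 22 lower, against 28.7% and 31.6% of all genes. In 30 members every 4 h replicate was above every 0 h replicate, and in 23 every one was below, against 30.4% and 33.0% of all genes. The members together took 0.473% ± 0.0169 of all counts at 0 h, 0.463% ± 0.0124 at 1 h, 0.471% ± 0.00903 at 2 h and 0.443% ± 0.0111 at 4 h (SD, n = 3), and the 4 h replicates (0.432 to 0.454%) lay below those at 0 h (0.456 to 0.489%). This share is on library totals and not on the TMM scale. With library totals the median slope of all genes was itself below 0, at -0.030 log2 per hour, so the lower share is not particular to the members.

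Little of this was measurable in the first hour. At 1 h, 0 members were called higher or lower than at 0 h (edgeR, adjusted p of 0.145 or more), against 0.349% higher and 2.24% lower of all genes, and 3 members (MRPL17, MRPL50 and MRPS25) had an unadjusted p under 0.05. Replicate numbers were taken to pair the libraries. With the replicate as a block in edgeR MRPS25 was higher at 1 h (0.25 log2, adjusted p = 0.00149) and MRPL35, MRPL50 and MRPS30 were lower (-0.17, -0.22 and -0.21 log2, adjusted p = 0.0105, 0.0209 and 0.0292). The same blocked fit called 6.18% of all genes higher and 10.5% lower at 1 h, larger shares than the 1 and 3 of 76 members. DESeq2 called 0 members.

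The rate between 2 and 4 h less that between 0 and 1 h asks whether the change per hour, in either direction, differed late in the course. It was called in 0 members, against 0.814% (higher) and 0.598% (lower) of all genes. An unadjusted p under 0.05 was found for 5 members (MRPL10, MRPL33, MRPL38, MRPL40 and MRPL44), and DESeq2 called 0. With the replicate block, the late rate was lower than the early one in MRPL44 (difference -0.40 log2 per hour, adjusted p = 0.00215), MRPL10 (-0.38, adjusted p = 0.0103) and MRPL14 (-0.22, adjusted p = 0.0255), and higher in MRPL33 (0.27, adjusted p = 0.0245), MRPL40 (0.29, adjusted p = 0.0477) and MRPL30 (0.14, adjusted p = 0.0428). Under the block 5.67% of all genes had a higher and 6.6% a lower late rate, larger shares than the 3 and 3 of 76 members, and the differences were not tested.

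At 0 h the members spanned an 18.5-fold range of level per length, from 7.61 to 140.7 CPM per kb of the GENCODE canonical transcript, with a median of 37.4. The highest were MRPL51 (140.7 ± 5.47 CPM per kb, SD, n = 3), a large subunit protein particular to mitochondria, MRPL3 (115 ± 3.52), a large subunit protein with a bacterial counterpart, and MRPS15 (107 ± 7.57) of the small subunit. The lowest were MRPS33 (7.61 ± 0.369), MRPL42 (8.26 ± 0.725) and MRPS14 (10.7 ± 0.240). The intervals of mean ± SD overlapped for MRPL3 and MRPS15, although each replicate of MRPL3 was above those of MRPS15. Those of MRPS33 and MRPL42 overlapped as well, and neither difference was tested. The canonical transcript of MRPL42 is 15557 bases long, so its level per length rests on the transcript model. Medians were 36.5 for 50 large subunit members and 39.8 for 25 of the small subunit. Of the 6 extremes, MRPL51, MRPS15, MRPS33 and MRPL42 rose, while MRPL3 (slope 0.024, adjusted p = 0.189) and MRPS14 (0.040, adjusted p = 0.178) did not pass the test. With library totals MRPS15 (0.087) stayed past the threshold, and MRPL51 (0.019), MRPS33 (0.022) and MRPL42 (0.046) did not. MRPL51 was also lost without replicate 1 and MRPS33 without replicate 3. With scaling to GAPDH plus ACTB all 6 slopes were below 0.

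**Figure D2:**
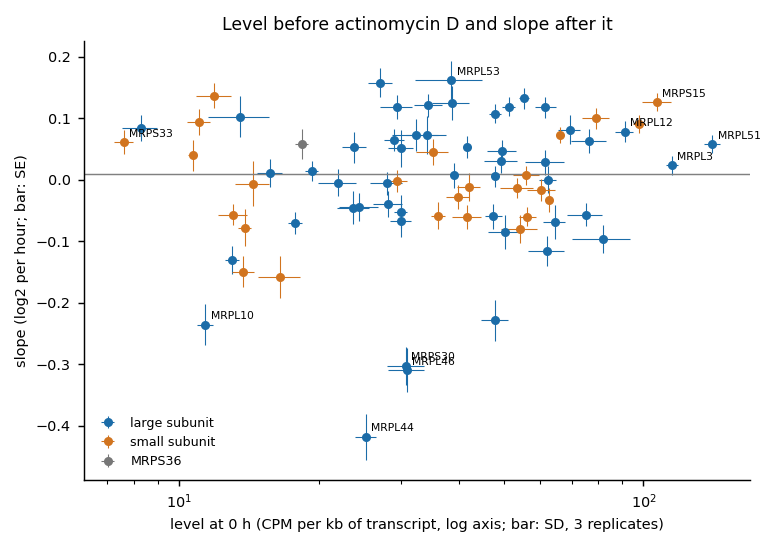
Level at 0 h in CPM per kb of transcript (x axis, log scale, mean and SD of 3 replicates) and slope after actinomycin D (y axis, log2 per hour with SE) for 76 members. Members of low level such as MRPS33 (7.61) and of high level such as MRPS15 (107) had positive slopes, and the lowest slopes, MRPL44, MRPL46 and MRPS30, stood at 25.2 to 30.9 CPM per kb; with scaling to GAPDH plus ACTB the slopes of MRPS33 and MRPS15 were negative.

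In the large subunit, 19 of 50 tested members rose and 14 fell, with a median slope of 0.019, and in the small subunit 7 of 25 rose and 8 fell, with a median of -0.011. Over all genes tested 30.7% rose and 32.1% fell. The difference between the subunits was not tested. Members with a bacterial counterpart (13 rose and 11 fell of 45) and those counted as particular to mitochondria (13 and 11 of 30) had medians of 0.0072 and 0.0064. The latter include MRPS18A and MRPS18B, which are relatives of a bacterial protein; counted with the former, they gave 13 rising and 12 falling of 47 and 13 and 10 of 28, with medians of 0.0072 and 0.026.

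The 5 steepest losses were all mRNAs of the large subunit, in which 50 of the 76 tested members were counted. The next lowest, MRPS31 and MRPS17, are of the small subunit, and the difference was not tested. MRPL44 codes for a protein particular to mitochondria that lies by the exit of the tunnel through which the new chain leaves, and its gene spans chr2:223957463-223967714 on the plus strand (GRCh38, GENCODE 44). It stood at 40.7, 44.9 and 42.2 CPM at 0 h, 34.1, 39.9 and 38.3 at 1 h, 27.9 to 31.4 at 2 h, and 14.7, 14.4 and 10.7 at 4 h. No replicate at a later time reached the lowest at an earlier one. Its slope was -0.42 (SE 0.037, adjusted p = 7.56e-08), an apparent half-life of 2.39 h on this scale. A GENCODE gene on the other strand overlaps an exon of MRPL44, and the strand setting of the counting is not given in the sources used here.

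MRPL46, a protein of the central protuberance of the large subunit, was at 29.4, 33.5 and 28.6 CPM at 0 h, 28.5, 31.2 and 22.8 at 1 h, 20.7, 25.8 and 22.4 at 2 h, and 14.7, 12.8 and 11.5 at 4 h. The 0 and 1 h values overlapped, and those at 4 h were below all others. Its slope was -0.31 (SE 0.036, adjusted p = 1.42e-06). An exon of MRPL46 overlaps another GENCODE gene on the same strand.

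MRPS30, named for the small subunit but found in the large one, was at 53.0, 53.9 and 45.4 CPM at 0 h, 42.9, 45.2 and 43.6 at 1 h, 41.2, 39.4 and 36.5 at 2 h, and 22.8, 24.8 and 17.4 at 4 h. Again the times did not overlap, although the lowest replicate at 0 h and the highest at 1 h were close. The slope was -0.30 (SE 0.031, adjusted p = 4.03e-07).

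MRPL10, at the base of the stalk that recruits translation factors, stood at 19.4, 20.8 and 19.6 CPM at 0 h, 20.5, 21.4 and 21.7 at 1 h, 17.0, 17.3 and 14.8 at 2 h, and 11.7, 10.5 and 10.5 at 4 h. It was no lower at 1 h than at 0 h, and the fall came between 1 and 4 h. The slope was -0.24 (SE 0.033, adjusted p = 1.12e-05).

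MRPL36, a small protein with a bacterial counterpart, went from 29.7, 30.8 and 27.1 CPM at 0 h to 16.4, 18.3 and 11.9 at 4 h, with no overlap (slope -0.23, SE 0.033, adjusted p = 1.38e-05). The next 3 were MRPS31, from 21.9, 27.0 and 24.7 to 14.4, 15.6 and 16.4 CPM, MRPS17, from 23.0, 25.4 and 25.2 to 15.3, 17.9 and 15.7 CPM, and MRPL50, from 42.4, 45.1 and 42.5 to 29.1, 29.7 and 30.7 CPM. Their slopes were -0.16, -0.15 and -0.13, with no overlap between 0 and 4 h in any of them. The other 14 members that fell had slopes of -0.12 to -0.057.

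**Figure D3:**
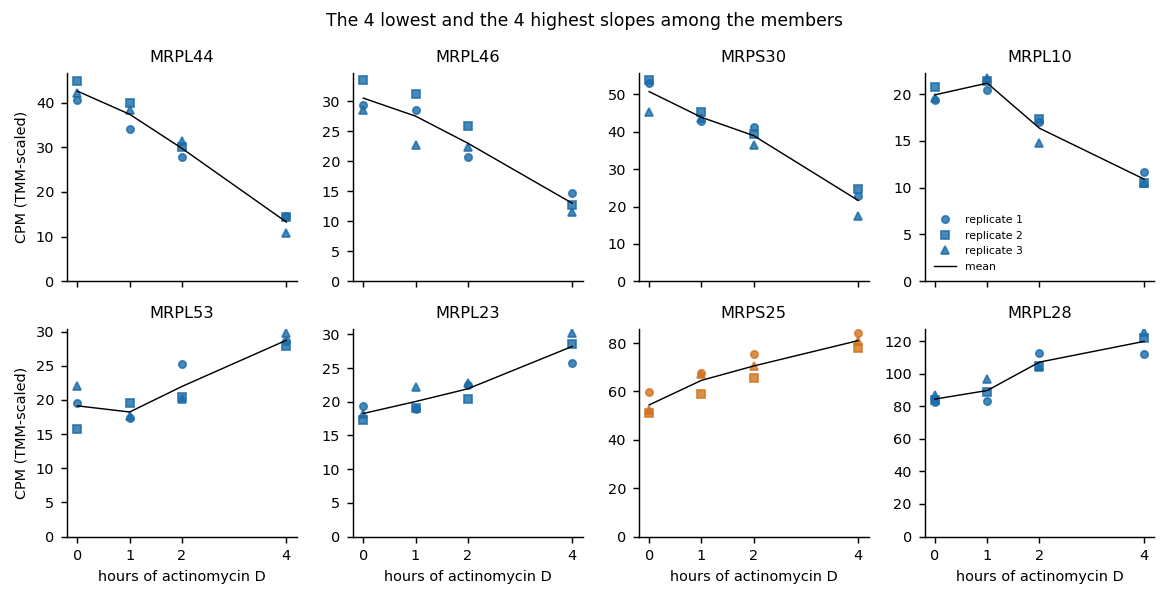
CPM (y axis, TMM-scaled, from 0) against hours of actinomycin D (x axis) for the members with the 4 lowest slopes (top) and the 4 highest (bottom). Symbols are the 3 replicates, blue for the large and orange for the small subunit, and the line joins their means; MRPL44 went from a mean of 42.6 to 13.3 CPM and MRPL53 from 19.1 to 28.8. With scaling to GAPDH plus ACTB none of the 4 rose.

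At the other end, MRPL53, a large subunit protein particular to mitochondria, was at 19.6, 15.8 and 22.1 CPM at 0 h, 17.4, 19.6 and 17.7 at 1 h, 25.3, 20.4 and 20.2 at 2 h, and 28.6, 27.8 and 29.8 at 4 h. The 4 h values were above all others, while those at 0 to 2 h overlapped. Its slope was 0.16 (SE 0.031, adjusted p = 2.69e-04); its exons overlap CCDC142 on the same strand and another gene on the other one.

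MRPL23, at the exit of the tunnel, was at 19.4, 17.2 and 18.2 CPM at 0 h and 25.8, 28.6 and 30.2 at 4 h (slope 0.16, SE 0.023, adjusted p = 1.91e-05). MRPS25, of the small subunit and particular to mitochondria, was at 59.8, 51.1 and 52.4 CPM at 0 h, 67.7, 58.8 and 67.3 at 1 h, 75.5, 65.7 and 70.4 at 2 h, and 84.4, 78.0 and 80.7 at 4 h. In each replicate of MRPS25 each time was above the one before, and its slope was 0.14 (SE 0.020, adjusted p = 2.10e-05). MRPL28, with a bacterial counterpart, went from 82.9, 83.5 and 86.8 to 112, 122 and 126 CPM (slope 0.13, SE 0.018, adjusted p = 5.94e-06).

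MRPS15 (slope 0.13), MRPL41 (0.13), MRPL52 (0.12) and MRPL37 (0.12) completed the 8 highest, and in each the 4 h replicates lay above those at 0 h. MRPS15 was the most abundant of these, at 93.4, 106 and 106 CPM at 0 h and 139, 144 and 144 at 4 h. With scaling to GAPDH plus ACTB, MRPL53 (0.024) and MRPL23 (0.021) kept a slope above 0 without passing the test, and the slopes of the other 6 were -0.021 to -0.0016.

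Proteins that sit together did not share a slope. Of the 3 stalk members, MRPL10 fell while MRPL12, which carries the contact with translation factors, and MRPL11 rose with TMM scaling. With GAPDH plus ACTB the slopes of these 2 were -0.059 and -0.021. With library totals MRPL12 was not past the threshold (0.039, edgeR adjusted p = 0.0566), while MRPL11 was (0.079). MRPL12 was at 87.2, 95.0 and 93.3 CPM at 0 h and 107, 119 and 111 at 4 h (slope 0.078, adjusted p = 0.00107), and MRPL11 at 42.9, 49.6 and 49.1 and then 66.7, 62.1 and 65.1 (slope 0.12, adjusted p = 5.10e-05). Among 8 proteins around the exit tunnel, 2 rose and 3 fell, from MRPL44 at -0.42 to MRPL23 at 0.16. For all genes tested the shares were 30.7% rising and 32.1% falling. In the central protuberance, 1 of 7 rose (MRPL48, 0.10) and 3 fell (MRPL46 lowest, -0.31). MRPL48 was no longer past the threshold without replicate 1 (0.072) or with library totals (0.064). Of 4 tested proteins lining the mRNA path of the small subunit 2 rose, among them MRPS7 (0.10, from 90.9, 102 and 91.8 to 126, 126 and 114 CPM), and 0 fell. MRPS12, of the decoding centre, had a slope of -0.011 (adjusted p = 0.689), with overlapping values of 37.9 to 42.2 CPM at 0 h and 36.5 to 41.5 at 4 h.

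The MRPS18 paralogs are all related to 1 bacterial protein and occupy different places in the ribosome. MRPS18C was at 21.5, 22.2 and 20.8 CPM at 0 h and 14.4, 19.1 and 16.4 at 4 h (slope -0.078, adjusted p = 0.0318; -0.052 and not past the threshold without replicate 1). MRPS18B was at 80.6, 80.3 and 75 CPM at 0 h and then 69.6, 65.9 and 66.8 (slope -0.060, adjusted p = 0.00281). MRPS18A was at 45.2, 46.4 and 44.8 CPM and then 41.6 to 50.1, which overlap (slope 0.0073, adjusted p = 0.772). MRPS36, outside the ribosome, had a slope of 0.058 (adjusted p = 0.0463) and was not past the threshold when any 1 replicate was left out.

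A ratio of counts of 2 genes within a library needs no scaling. The 5 pairs given here were chosen after their values were seen, so they are described with no test. MRPL10 to MRPL12 was 0.222, 0.219 and 0.210 at 0 h and 0.110, 0.0883 and 0.0946 at 4 h, or 44.9% of its mean at 0 h. MRPL44 to MRPL45, which both lie by the exit tunnel, was 1.18, 1.21 and 1.37 at 0 h and 0.440, 0.409 and 0.345 at 4 h, or 31.8%. MRPL45 itself did not pass the test (slope -0.0045, adjusted p = 0.871).

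Another pair shares a stretch of DNA. MRPL46 spans chr15:88459477-88467390 on the minus strand and MRPS11 chr15:88467453-88480776 on the plus strand (GRCh38, GENCODE 44), head to head, and their RefSeq start sites are 320 bases apart. MRPS11, of the mRNA path, was at 37.4, 35.4 and 39.6 CPM at 0 h and 46.6, 48.0 and 45.7 at 4 h (slope 0.093, adjusted p = 9.68e-04; -0.045 with GAPDH plus ACTB). MRPL46 to MRPS11 was 0.785, 0.948 and 0.722 at 0 h, 0.747, 0.930 and 0.624 at 1 h, 0.477, 0.567 and 0.517 at 2 h, and 0.315, 0.266 and 0.252 at 4 h, or 33.9%. The falls were smaller among the MRPS18 paralogs, where MRPS18C to MRPS18A was at 75.2% and MRPS18B to MRPS18A at 83.1% of its mean at 0 h by 4 h. In each of the 5 pairs the replicates at 4 h were below those at 0 h, as their choice after the values were seen made likely. No share over other pairs was counted.

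The RefSeq promoter table used here (GRCh38.p14) gave windows of 250 bases before and 50 after a start site for 68 of the 77 members. These were searched on both strands for short motifs. Members with several start sites were scored per gene and not per window. AAGATGGCG, the core of sites of the zinc finger factor YY1, was held by 13 of 68 members (19.1%). The shares were 2.14% of all 27305 genes with a window and 5.08% of the 9155 of them that were tested. It was held by 2 of the 24 rising members with a window (MRPL42 and MRPL52) and 6 of the 20 falling ones. The latter are MRPL46, MRPS30, MRPL36, MRPL50, MRPL32 and MRPS18B, while MRPL44, the lowest slope, held none and MRPL10 had no window. CCGGAAG is bound by factors of the ETS family, to which the FLI1 part of the Ewing sarcoma fusion protein belongs. This motif was held by 29 members (42.6%), against 12.2 and 23.0%, among them 12 of 24 rising and 7 of 20 falling members. GGGCGG, the GC box, was held by 60.3% of members with a window (48.3 and 77.9%). CGCATGCG, the core of NRF1 sites, was held by 4.41% (2.46 and 4.68%) and TATAAA by 4.41% (14.0 and 8.13%). These shares are descriptions and show no binding, and the differences were not tested. Over all genes tested, the motifs were not counted by rising and falling.

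The first line is the whole window of MRPL46, at chr15:88467339-88467638 on the minus strand, shown because it is part of the stretch between that gene and MRPS11, and the next 4 are the bases around the YY1 letters of the falling members of lowest slope that hold them. All are RefSeq sequence (GRCh38.p14), 5′ to 3′ along the gene's strand, with the matched letters in capitals; in MRPL36 the match is on the other strand. The capitals start at base 9 in MRPL46, 14 in MRPS30 and 24 in MRPL50, counted from the start site as base 1, and at base -36 in MRPL36.
MRPL46 window: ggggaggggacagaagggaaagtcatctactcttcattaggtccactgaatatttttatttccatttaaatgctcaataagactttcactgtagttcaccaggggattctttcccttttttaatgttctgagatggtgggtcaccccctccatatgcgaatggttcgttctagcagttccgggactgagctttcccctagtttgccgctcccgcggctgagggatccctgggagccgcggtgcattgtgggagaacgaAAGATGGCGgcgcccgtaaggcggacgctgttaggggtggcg
MRPL46: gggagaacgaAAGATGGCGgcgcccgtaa
MRPS30: atcgcgggcaAAGATGGCGgcggccaggt
MRPL36: ccccccccgcCGCCATCTTccttcctggc
MRPL50: gatctcatcgAAGATGGCGgcgcgatctg

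For contrast, the ETS letters stood in windows of members that rose, MRPL53 (slope 0.16, 1 of its 2 matches is shown) and MRPL28 (0.13), and of one that fell, MRPS31 (-0.16). The capitals mark the match, which in MRPL28 is on the other strand.
MRPL53: cagccggcggCCGGAAGtctatcccgc
MRPL28: ggcagatcggCTTCCGGttccggtggg
MRPS31: aggcgccaggCCGGAAGcggaagagag

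Across the 76 members, slope and GC content of the canonical transcript had a Spearman rho of 0.30 (0.268 over 11156 genes with a transcript), and the median GC content was 52.3% in rising and 46.4% in falling members. The rho of slope with transcript length was -0.14 (-0.238 over all genes), with exon number 0.082 (0.205) and with level per length 0.12. These points share 12 libraries and are not independent. The members' transcripts were short, with a median of 1288 bases against 3462 for all genes.

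Reads of members with copies or neighbours may be split between genes. Of the 76, 28 have an exon that overlaps another GENCODE gene (9 rose and 5 fell), 48 have none (18 rose and 17 fell), and 36 have a pseudogene named after them (12 rose and 10 fell). Shares over all genes tested were 30.7% rising and 32.1% falling, and the differences were not tested. Among the lowest and highest slopes named, MRPL44, MRPL46, MRPS17, MRPL53 and MRPS25 have such an exon overlap. MRPS24 shares exons with the read-through gene URGCP-MRPS24, which had 0 counts in every library, while URGCP had 77 to 460; how reads of MRPS24 were assigned was not tested.

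The mRNAs of genes that work with the mitochondrial ribosome varied as well. Of 6 subunits with other kinds of symbols, 3 rose, DAP3, GADD45GIP1 and AURKAIP1 (0.091, 0.13 and 0.14), and ICT1, a peptidyl-tRNA hydrolase of the large subunit, fell (-0.10). Of 10 mitochondrial translation factors 3 rose, among them TUFM, the elongation factor Tu (0.13), and C12orf65, a release factor-like protein, fell (-0.44). Of 20 factors that help assemble the ribosome, 12 fell and 2 rose, with a median slope of -0.12; the extremes were DDX28, an RNA helicase (-1.07), and MTG1, a GTPase (0.12). Beside these lists, 30.7% of all genes tested rose and 32.1% fell, and the differences were not tested. Messages of the mitochondrial genome were not analysed here.

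The same counts for other large families follow for comparison. Of 75 cytosolic ribosomal proteins 72 rose and 1 fell, with a median slope of 0.12 and middle quartiles of 0.10 to 0.14. Of 75 nuclear-encoded subunits of the respiratory chain 70 rose and 2 fell, with a median of 0.12. Set beside these, the 27 rising and 22 falling of 76 mitochondrial ribosomal protein mRNAs had quartiles of -0.059 to 0.073. Among all genes tested 30.7% rose and 32.1% fell. All of these directions are those of TMM scaling, and the differences between the families were not tested.

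**Figure D4:**
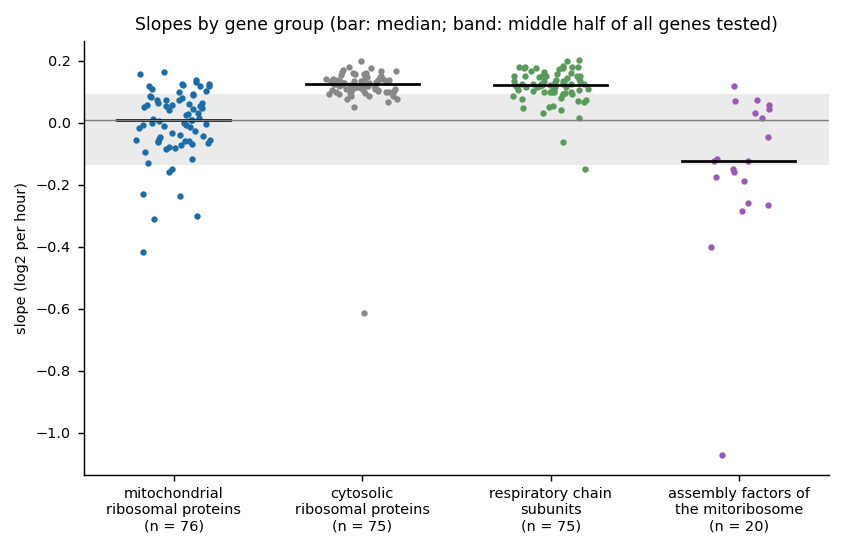
Slope after actinomycin D (log2 per hour, TMM scaling, y axis) of each tested gene in 4 groups (x axis), with the median as a bar and the quartiles of all genes tested as a band. The medians were 0.0072 for 76 mitochondrial ribosomal proteins, 0.12 for 75 cytosolic ones, 0.12 for 75 respiratory chain subunits and -0.12 for 20 assembly factors; with scaling to GAPDH plus ACTB the median of all genes moved by -0.14.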

How the data were processed

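Counts per gene symbol were deposited by the authors as 1 table, with no normalization. The submitters' processing notes name FastQC, STAR and hg19. The counting tool, annotation and strand setting are not given in the sources used here. All 12 columns matched a sample by title, and 0 columns were left unmatched. Genes averaging 10 counts or more over the libraries were fitted with edgeR 4.0.16 (TMM factors, quasi-likelihood test) in R 4.3.3, with time in hours as a number for slopes and as 4 groups for contrasts, over all 12 libraries. P-values were adjusted over 12032 genes. The common biological coefficient of variation was 0.0905. The script was tested on simulated counts. Library totals were 9147018 to 11194705. An apparent half-life is the reciprocal of a negative slope and moves with the scaling. Alternatives were other scalings (library totals, DESeq2 1.42.0 size factors, GAPDH plus ACTB), a replicate block, other count minimums, each replicate dropped in turn, DESeq2 itself and fewer time points.

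Same-numbered libraries deviated together from their group means (18 pairs, mean r 0.454, lowest 0.323). The 36 pairs of different number had a mean of -0.224. That sign follows from centring each time on its own mean and is no separate evidence. The numbers were taken as pairs, a hint from the data and not from the labels. Named genes were the 8 lowest and 8 highest slopes with 1 sign in all 3 replicates, the 3 highest and 3 lowest levels per length, the extremes of each list, and MRPS18A, MRPS18B, MRPS18C, MRPS30, MRPS36, MRPL10, MRPL12 and MRPS12; MRPS11 and MRPL45, and MRPL11, which is also the extreme of its list, were added after their values were seen. The members and lists were chosen with earlier results of these data known. Lengths come from GENCODE 44 (GRCh38), and promoter windows from RefSeq.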

Additional observations from a re-analysis of the deposited data

How the results depend on the processing

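Which members rise or fall depends on the scale. With library totals 15 members rose by slope and 14 were higher at 4 h, and with GAPDH plus ACTB 0 rose, 0 were higher, 57 fell and 58 were lower, with the median slope of all genes moved by -0.14. Under that scaling 39 of the 41 members with a positive slope turned negative; among the 32 named genes these were MRPL11 (-0.021), MRPL12 (-0.059), MRPL28 (-0.0051), MRPL3 (-0.11), MRPL37 (-0.021), MRPL41 (-0.013), MRPL42 (-0.053), MRPL48 (-0.036), MRPL51 (-0.080), MRPL52 (-0.016), MRPS11 (-0.045), MRPS14 (-0.099), MRPS15 (-0.012), MRPS18A (-0.13), MRPS25 (-0.0016), MRPS33 (-0.075), MRPS36 (-0.079) and MRPS7 (-0.038). With library totals 9 of the 41 did, among them the named MRPL3 (-0.016) and MRPS18A (-0.032). MRPS18A was also negative without replicate 1 (-0.0092) and over 1, 2 and 4 h (-0.023), MRPL45 positive over 1, 2 and 4 h (0.0067) and MRPS12 positive over 0, 1 and 2 h (0.010). Over 0, 1 and 2 h 10 members rose and 6 fell, and the member median was 0.022 above that of all genes; over 1, 2 and 4 h 14 fell. The cause was not tested, and these fits use fewer libraries. Leaving out a replicate gave 21 to 23 rising and 16 to 17 falling members, and 17 to 21 higher and 16 to 17 lower at 4 h. With the replicate block 30 rose and 23 fell; at 1 h 1 was higher and 3 lower (6.18% and 10.5% of all genes), and the late rate was higher in 3 and lower in 3 (5.67% and 6.6%). The block changed no call among the slopes of the 32 named genes. Of these, 10 kept direction and side of the threshold with GAPDH plus ACTB, and all 32 with DESeq2. MRPS24, at 0 to 2 counts per library, allows no statement; the cause of its low counts was not tested.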
